A study of Mus musculus with 20 samples.

Results

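The levels of 10 genes that mark newly formed oligodendrocytes were followed in bulk RNA sequencing of 2 mouse white matter tracts. These are the G protein-coupled receptor gene Gpr17, the ligand gene Bmp4, the enzyme genes Enpp6 and Neu4, the kinase gene Fyn, the calcium channel gene Itpr2, the transcription factor gene Tcf7l2, and Bcas1, Tns3 and Kif19a. They were chosen by name and matched by Ensembl gene identifier to 10 of the 46517 genes of the deposited table, 1 row each. The 20 libraries form the groups KO_ON (optic nerve, Zdhhc9 knockout, 5 libraries), WT_ON (optic nerve, wild type, 4 libraries), KO_CCg (corpus callosum, Zdhhc9 knockout, 6 libraries) and WT_CCg (corpus callosum, wild type, 5 libraries). Zdhhc9, an X-linked gene, encodes a protein acyltransferase, an enzyme that adds palmitate to other proteins. The labels call the mice knockout and the description of the series calls them knockdown. The kind of allele, the age and the sex of the mice, and whether a library is 1 mouse or a pool, cannot be read from the labels, so the p-values measure the spread between libraries. The callosum was cut from frozen coronal sections of the brain, and optic nerves were frozen after dissection.

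Oligodendrocytes, the cells that wrap axons in myelin, arise from dividing precursors through a short-lived stage in which a cell has left the cell cycle, puts out many processes and prepares to wrap an axon. The genes described here are known to be switched on in that stage, and several of them are low in precursors and again lower in cells with finished myelin. Bcas1 protein marks cells that are starting to wrap, and GPR17 is known to have to be turned off before a cell can finish its maturation. Bone morphogenetic protein signals are known to hold the lineage back, and TCF7L2, an effector of Wnt signals, is needed for its differentiation.

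The libraries held between 15401025 and 26095508 estimated counts after rounding, and no pair was identical. Zdhhc9 had 40.8 CPM in the lowest, 48.2 CPM at the median and 56.0 CPM in the highest of the knockout callosum libraries, against 192, 186, 186, 201 and 153 CPM in wild type, where CPM is the estimated count per 1000000 counts of the library, scaled with the TMM factors of all libraries. In optic nerve it had 51.4, 35.4, 47.7, 35.1 and 43.0 CPM in the 5 knockout optic nerve libraries, against 135, 145, 115 and 150.4 CPM in the 4 wild-type ones. The groups did not overlap in either tract, and the log2 fold change, knockout over wild type, was -1.95 in callosum (adjusted p = 1.8e-06) and -1.70 in optic nerve (adjusted p = 5.4e-04). The labelled white matter showed in 20 mature oligodendrocyte markers, which summed to 37329 CPM or more in every library. Neuron markers were low in optic nerve, where 18 such genes summed to 257 to 562 CPM in KO_ON and 208 to 417 CPM in WT_ON libraries, against 2092 to 5558 CPM in KO_CCg and 1536 to 4086 CPM in WT_CCg libraries. No neuron marker was at 0 in any library.

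The 250 bases upstream of the start of Enpp6 (GRCm38.p6, chr8:46986637-46986886, plus strand) and of Bmp4 (chr14:46390670-46390919, minus strand) are shown here because Enpp6 had the lowest fold change in knockout callosum, Bmp4 differed most between the tracts, and both windows lie outside the annotated gene. The deposited table lists Enpp6 as ENSMUSG00000038173.13 and Bmp4 as ENSMUSG00000021835.13. In the GENCODE annotation of the same build, matched with the version removed, Enpp6 runs from 46986887 to 47096762 on chromosome 8. There Bmp4 runs from 46383520 to 46390669 on chromosome 14, so both windows end at the base next to the gene. The sequences are from RefSeq, written 5′ to 3′ along the gene, with the letters of a searched motif in capitals. The motifs were ACAAAG, a core bound by SOX proteins, CTTTGA, a core bound by TCF and LEF proteins, and the E-box CANNTG of basic helix-loop-helix proteins, each on both strands.
Enpp6 upstream window: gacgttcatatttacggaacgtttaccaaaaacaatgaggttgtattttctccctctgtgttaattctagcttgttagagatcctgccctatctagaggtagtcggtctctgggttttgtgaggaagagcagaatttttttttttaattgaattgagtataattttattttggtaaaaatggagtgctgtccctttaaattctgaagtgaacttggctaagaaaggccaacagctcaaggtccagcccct
Bmp4 upstream window: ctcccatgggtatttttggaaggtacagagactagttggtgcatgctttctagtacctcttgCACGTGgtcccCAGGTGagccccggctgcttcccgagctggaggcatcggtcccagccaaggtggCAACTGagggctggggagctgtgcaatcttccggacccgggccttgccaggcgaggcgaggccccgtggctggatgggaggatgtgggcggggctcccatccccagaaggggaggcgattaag
The Enpp6 window, with 38.4% G and C, held none of the 3 motifs. The Bmp4 window, with 63.2% G and C, held 3 E-boxes, shown in capitals above, which begin 188, 177 and 123 bases before the start. Over 32851 windows of this length, 66.2% held an E-box, 13.8% the TCF and LEF letters and 16.5% the SOX letters. Windows were matched for 7 of the genes, as 8 windows since Tcf7l2 has a pair of them. The Fyn window and 1 of those of Tcf7l2 lie within the annotated gene and the end of the Neu4 window overlaps it, so these are not upstream of the whole gene and are not printed. CTTTGA was found in the windows of Fyn and Neu4, the SOX letters in the Tcf7l2 window within the gene, and an E-box in those of Bmp4, Neu4 and Tns3. These matches describe the letters in the windows and no binding was measured.

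Per length of their exons, Bcas1 was the most abundant of the genes and Tcf7l2 the least. In WT_ON the mean level per kilobase of exon was 542 CPM for Bcas1, 43.5 for Gpr17, 30.4 for Fyn, 30.3 for Tns3, 19.4 for Enpp6 and 18.8 for Bmp4. Neu4 followed at 9.37 CPM per kilobase, Itpr2 at 4.42, Kif19a at 3.45 and Tcf7l2 at 1.97. In WT_CCg Bcas1 was again the highest, at 430.2 CPM per kilobase, and Tcf7l2 the lowest, at 1.97, with Gpr17 at 75.2, Fyn at 57.6, Kif19a at 10.1 and Bmp4 at 5.60. Between libraries of a group, Fyn varied least and Tcf7l2 most in all 4 groups: the coefficient of variation of Tcf7l2 was 38.0% in KO_CCg and 35.4% in WT_CCg, against 11.9% and 10.1% for Fyn.

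**Figure D1:**
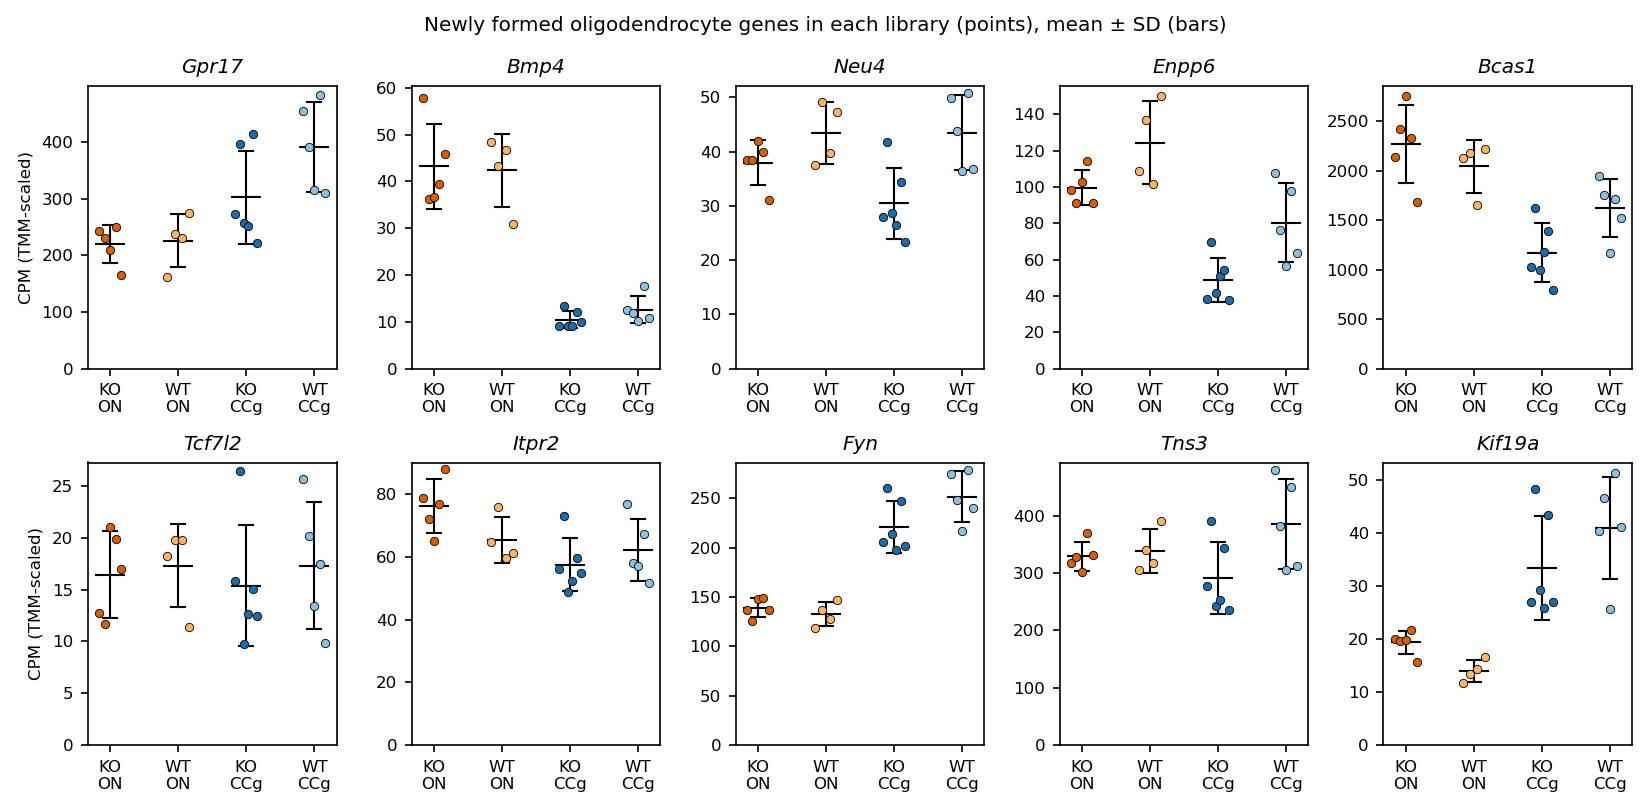
Level of each gene in each library, in CPM scaled with TMM factors, with the mean and SD of each group drawn as bars. Groups run from KO_ON (n = 5) and WT_ON (n = 4) to KO_CCg (n = 6) and WT_CCg (n = 5). Bmp4 is 31.0 CPM or more in every optic nerve library and 17.6 CPM or less in every callosum library, and the KO_CCg and WT_CCg points of every gene overlap.

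The first question was whether the knockout changed these genes in corpus callosum. All 10 had lower mean levels in knockout callosum, most of all Enpp6, at 60.3% of wild type, and Neu4, at 69.5%, yet none passed the test at an adjusted p under 0.05. The edgeR test called 6 of 15519 genes in all, or 0.0387% of them, 2 higher and 4 lower. The median log2 fold change over the 10 genes was -0.34, against -0.013 over all genes tested, of which 52.5% were negative. In the same libraries 18 of 20 mature oligodendrocyte markers were negative (median -0.55) and all 18 neuron markers positive (median 0.66), as described below. In bulk tissue, fewer cells at this stage, less RNA per cell and a different mix of cell types in the cut tissue cannot be told apart.

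Among the genes of secreted and surface signals, Gpr17, which encodes the receptor that marks committed precursors, had 222 CPM in the lowest, 264 CPM at the median and 414 CPM in the highest of the 6 knockout callosum libraries, against 455, 391, 315, 483 and 309.6 CPM in the 5 wild-type ones. The 4 lowest knockout libraries were under every wild-type library, and the other 2 lay within the wild-type range. This gave a log2 fold change of -0.38 (standard error 0.19, 95% interval -0.79 to 0.034, adjusted p = 0.457). Bmp4, whose secreted product is a bone morphogenetic protein, had 8.99 CPM in the lowest, 9.58 CPM at the median and 13.3 CPM in the highest of the 6 knockout callosum libraries, against 12.6, 11.8, 10.2, 17.6 and 10.8 CPM in the 5 wild-type ones. Again 4 knockout libraries were under every wild-type library, at a low level in both groups. Its log2 fold change was -0.28 (SE 0.16, 95% interval -0.64 to 0.073, adjusted p = 0.499).

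The enzyme genes Enpp6 and Neu4 had the lowest fold changes. Enpp6, which encodes a choline-specific phosphodiesterase, had 37.8 CPM in the lowest, 46.3 CPM at the median and 69.6 CPM in the highest of the 6 knockout callosum libraries, against 108, 76.5, 56.5, 97.8 and 63.5 CPM in the 5 wild-type ones. Every knockout library except KO_CCg_29 was under the lowest wild-type library, and KO_CCg_29 lay within the wild-type range. Mean levels were 48.8 ± 12.2 CPM in knockout and 80.4 ± 21.9 CPM in wild type (SD, n = 6 and 5), a log2 fold change of -0.73 (standard error 0.20, 95% interval -1.16 to -0.30, adjusted p = 0.262). Neu4, which encodes a sialidase that trims sialic acid from glycolipids and glycoproteins, had 23.3 CPM in the lowest, 28.3 CPM at the median and 41.8 CPM in the highest of the 6 knockout callosum libraries, against 49.9, 43.8, 36.4, 50.7 and 36.8 CPM in the 5 wild-type ones. Here too KO_CCg_29 alone of the 6 knockout libraries reached the wild-type range. Neu4 averaged 30.4 ± 6.63 CPM in knockout and 43.5 ± 6.89 CPM in wild type, a log2 fold change of -0.53 (standard error 0.15, 95% interval -0.86 to -0.19, adjusted p = 0.290).

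Of the genes that act inside the cell in signalling, Fyn, a Src family kinase that relays axonal signals and is itself known to carry palmitate, had 197 CPM in the lowest, 209.9 CPM at the median and 261 CPM in the highest of the 6 knockout callosum libraries, against 275, 249, 217, 278 and 239.6 CPM in the 5 wild-type ones. Of the knockout libraries, 4 were under every wild-type library and 2 were within the wild-type range. Its log2 fold change was -0.20 (SE 0.10, 95% interval -0.42 to 0.030, adjusted p = 0.476). Itpr2, the inositol trisphosphate receptor that releases calcium from the endoplasmic reticulum, spanned 49.0 to 73.1 CPM in knockout and 51.7 to 76.9 CPM in wild type, with a log2 fold change of -0.12 (95% interval -0.39 to 0.15). Tcf7l2 had 9.72 CPM in the lowest, 13.9 CPM at the median and 26.4 CPM in the highest of the 6 knockout callosum libraries, against 25.7, 20.2, 13.4, 17.5 and 9.80 CPM in the 5 wild-type ones. The highest Tcf7l2 value of both groups was in KO_CCg_29 and the lowest in KO_CCg_693451, so the knockout range enclosed the wild-type one, with a log2 fold change of -0.18 (95% interval -0.77 to 0.41).

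The genes of cell shape and adhesion had lower means in knockout too, with groups that overlapped. Bcas1, whose protein marks cells that are starting to wrap, was measured here as RNA. Its level was 790.1 CPM in the lowest, 1105 CPM at the median and 1624 CPM in the highest of the 6 knockout callosum libraries. The 5 wild-type ones had 1951, 1757, 1173, 1714 and 1525 CPM. Of the knockout libraries, 3 were under every wild-type library, and KO_CCg_29 was above 2 of the 5. Its mean was 1169 ± 298 CPM in knockout and 1624 ± 294 CPM in wild type, a log2 fold change of -0.48 (standard error 0.18, 95% interval -0.89 to -0.081, adjusted p = 0.393). Tns3, a tensin that ties integrin adhesions to actin, had 236 CPM in the lowest, 265 CPM at the median and 392 CPM in the highest of the 6 knockout callosum libraries, against 480.5, 382, 305, 449.6 and 312 CPM in the 5 wild-type ones. In 4 knockout libraries Tns3 was under every wild-type library, and the log2 fold change was -0.42 (SE 0.17, 95% interval -0.78 to -0.051, adjusted p = 0.398). Kif19a, a kinesin motor known in mouse for trimming the microtubules of cilia, had 25.8 CPM in the lowest, 28.2 CPM at the median and 48.4 CPM in the highest of the 6 knockout callosum libraries, against 40.5, 46.6, 25.7, 51.4 and 41.1 CPM in the 5 wild-type ones. No knockout library lay outside the wild-type range of Kif19a, and its log2 fold change was -0.30 (95% interval -0.76 to 0.15).

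Before adjustment, 4 of the 10 genes (Enpp6, Neu4, Bcas1 and Tns3) were lower at p under 0.05, where 6.89% of all genes were and 11.7% passed in either direction. None of the 10 had groups without overlap, a pattern seen in 0.889% of all genes. KO_CCg_719856 was the lowest of the 11 callosum libraries for 5 of the genes and KO_CCg_693451 for 3, while WT_CCg_717652 was the highest for 5 and WT_CCg_28 for 4. KO_CCg_29 was above the other knockout libraries for 9 of the 10 genes, the exception being Gpr17. The gene counts depended on single libraries: edgeR called 41 genes without WT_CCg_685232, 3 without KO_CCg_27 or KO_CCg_29, and 2 without KO_CCg_693451, KO_CCg_719856, WT_CCg_28, WT_CCg_30, WT_CCg_717652 or WT_CCg_7198587. None of the 10 was called in any of these fits.

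**Figure D2:**
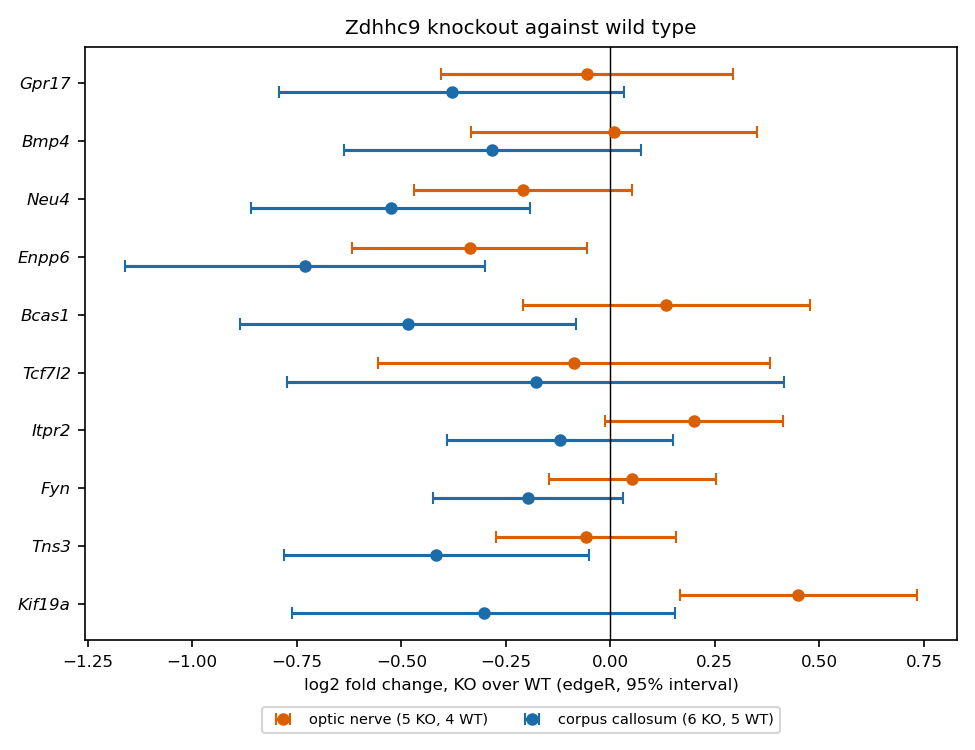
Log2 fold change of each gene, knockout over wild type, in optic nerve (5 KO, 4 WT) and in corpus callosum (6 KO, 5 WT), from edgeR, with bars for the 95% interval. In callosum the 10 points lie between -0.73 for Enpp6 and -0.12 for Itpr2, and in optic nerve between -0.34 for Enpp6 and 0.45 for Kif19a.

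Markers of other cell types also differed in mean level between the genotypes in the same callosum libraries, with no marker called. All 18 neuron markers were positive, with a median log2 fold change of 0.66 and 0 called, and their summed level was 2092 to 5558 CPM in KO_CCg and 1536 to 4086 CPM in WT_CCg. The 3 with the smallest p were Drd1, at 0.95 (adjusted p = 0.247), Pde10a, at 0.95 (adjusted p = 0.271), and Ppp1r1b, at 0.67 (adjusted p = 0.368), which are known as genes of striatal projection neurons. Of 20 mature oligodendrocyte markers, 18 were negative, with a median of -0.55 and 0 called, and they summed to 37329 to 73078 CPM in KO_CCg and 58423 to 98118 CPM in WT_CCg. All 12 microglia markers were negative (median -0.36, 0 called), as were 10 of 12 astrocyte markers (median -0.11), 7 of 10 endothelial markers (median -0.033) and 11 of 12 mural and fibroblast markers (median -0.28), again with 0 called. Choroid plexus and ependymal markers were negative for 7 of 7 tested (median -0.37) and retina and pigment cell markers for 4 of 6 (median -0.11), with 0 called.

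Library by library, KO_CCg_29 had the highest mature marker sum (73078 CPM) and the lowest neuron marker sum (2092 CPM) of the knockout callosum libraries, and KO_CCg_719856 had the lowest (37329 CPM) and the highest (5558 CPM). Enpp6 was 69.6 CPM in KO_CCg_29 and 37.8 CPM in KO_CCg_719856. In wild type, WT_CCg_28, with the highest mature sum (98118 CPM), had 108 CPM of Enpp6, and WT_CCg_685232, with the lowest (58423 CPM), had 56.5 CPM. With the mean neuron marker level as a covariate, the median log2 fold change of the 10 genes was -0.099, with Enpp6 at -0.39, Neu4 at -0.28 and Tcf7l2 at 0.32. With that of the mature oligodendrocyte markers, a covariate added after the data were seen, the median was 0.015, 7 of the 10 genes were positive, and Enpp6 and Neu4 were at -0.17 and -0.15. None of the 10 was called in either fit. The mean levels of both marker sets themselves differed between the genotypes, so these fits cannot tell a knockout effect from a difference in marker level. Why the marker levels differ between these libraries was not tested.

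**Figure D3:**
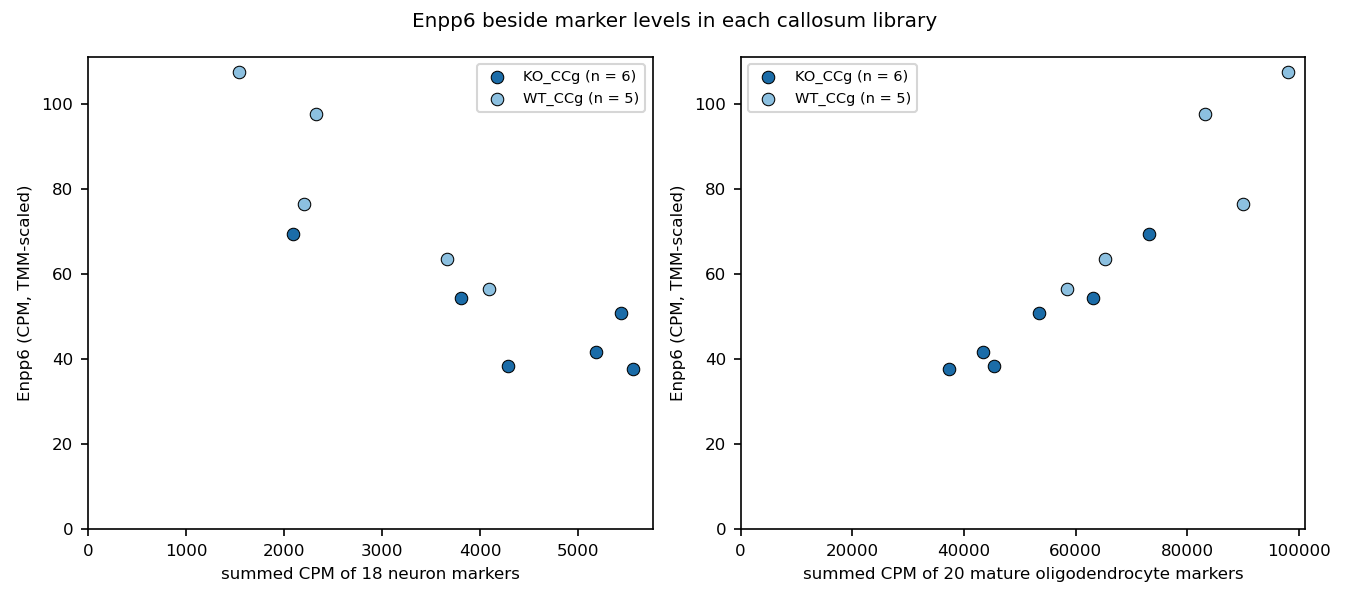
Enpp6 level (CPM) in each callosum library against the summed CPM of 18 neuron markers, left, and of 20 mature oligodendrocyte markers, right, for 6 KO_CCg and 5 WT_CCg libraries, each point 1 library. KO_CCg_29, at 69.6 CPM, stands among the wild-type libraries on both axes, with 2092 CPM of neuron markers and 73078 CPM of mature markers.

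The choice of test decided the calls. DESeq2 called 1 of the 10 genes, Enpp6, lower (adjusted p = 0.0499), among 174 genes or 1.12% of those tested. limma-voom with sample quality weights called 8 of the 10 lower, all except Itpr2 and Tcf7l2, with a median log2 fold change of -0.59 over the 10. It called 2786 genes in all, 18% of those tested, and 8.45% were called lower. That fit gave KO_CCg_29 the smallest weight, 0.335, and KO_CCg_693451 the largest, 3.18. Sample numbers come as 2 digits or longer ones, and what the format marks is not stated. Within longer numbers alone (4 knockout, 3 wild type) the median over the 10 genes was -0.38, and within 2-digit numbers alone (2 of each) it was -0.24, with none of the 10 called in either.

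**Figure D4:**
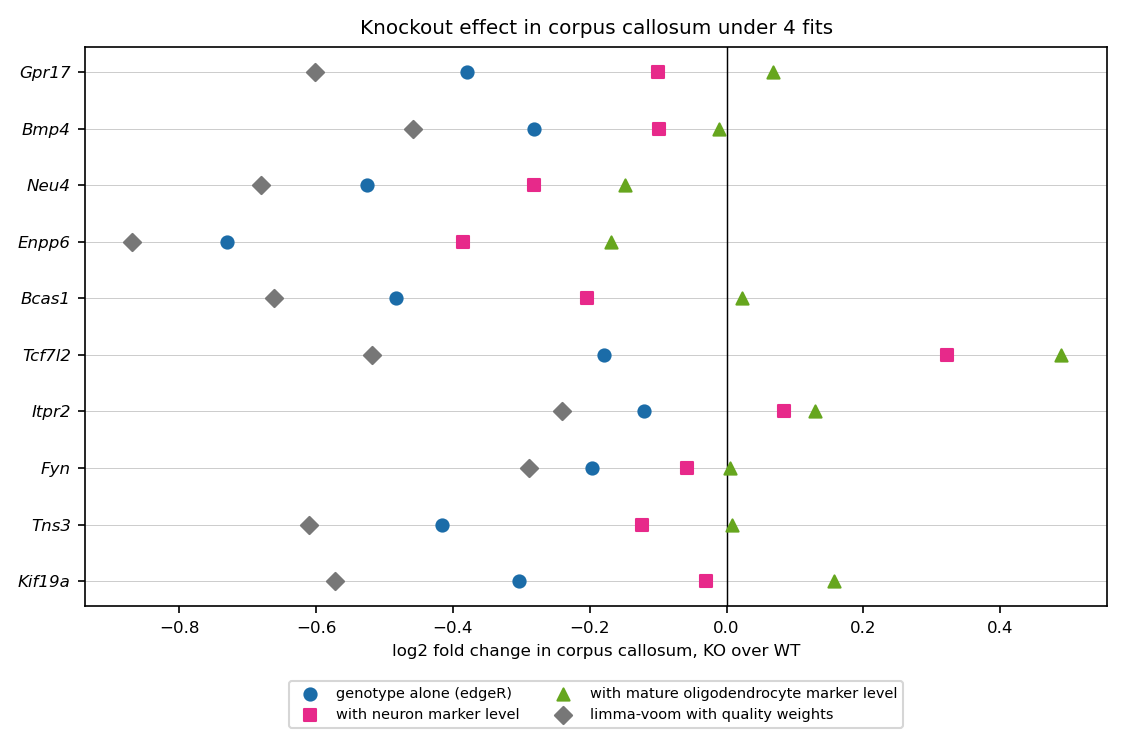
Log2 fold change of each gene in corpus callosum, knockout over wild type, under 4 fits: edgeR with genotype alone, edgeR with the level of neuron markers or of mature oligodendrocyte markers as a covariate, and limma-voom with sample quality weights. The medians over the 10 genes are -0.34, -0.099, 0.015 and -0.59 in that order.

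Other genes of the same stage and of the neighbouring stages were mostly negative in callosum as well, and none was called. Of 17 further newly formed oligodendrocyte genes measured out of 18, 12 were negative, with a median log2 fold change of -0.11 and 0 called. Elovl7, a fatty acid elongase, was at -0.43 (adjusted p = 0.342), Rnf122, a ubiquitin ligase, at -0.36 (adjusted p = 0.429) and Lims2, an adhesion adaptor, at -0.32 (adjusted p = 0.457). Of 15 precursor markers, 12 were negative (median -0.17) and 0 called, with Tmem176b at -0.45 (adjusted p = 0.140), Matn4, a matrilin, at -0.48 (adjusted p = 0.288) and the growth factor receptor Pdgfra at -0.26 (adjusted p = 0.381). Among the mature markers the smallest p were those of Pmp22, a myelin protein, at -0.95 (adjusted p = 0.112), Hapln2, a matrix protein of nodes of Ranvier, at -1.14 (adjusted p = 0.139), and Trf, transferrin, at -0.74 (adjusted p = 0.194).

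The pathways around the 10 genes had no called gene in callosum. Of 24 BMP pathway genes, 10 were negative, with a median log2 fold change of 0.014. The ligand Bmp2 had -0.82 (adjusted p = 0.139), at 4.00 ± 0.579 CPM in KO_CCg and 7.03 ± 1.41 CPM in WT_CCg (SD, n = 6 and 5). The antagonist Fst was at 1.54 (adjusted p = 0.361), and Id3, a transcriptional target of BMP signals, at -0.37 (adjusted p = 0.413). Of 16 Wnt pathway genes, 10 were negative (median -0.021), with the kinase Gsk3b at 0.40 (adjusted p = 0.338), the co-receptor Lrp5 at -0.18 (adjusted p = 0.516) and the scaffold Axin1 at -0.18 (adjusted p = 0.522). Of 15 tested genes of Src family kinases and Fyn regulators, 8 were negative (median -0.033), with the kinases Lyn at -0.36 (adjusted p = 0.257) and Csk at -0.24 (adjusted p = 0.399) and the adhesion molecule L1cam at 0.69 (adjusted p = 0.478). Of 14 tested relatives of the 10 genes, 9 were negative (median -0.17), with Enpp1 at -0.43 (adjusted p = 0.257), Itpr1 at 0.84 (adjusted p = 0.280) and Tns1 at -0.26 (adjusted p = 0.397).

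In optic nerve the same genes had fold changes on both sides of 0, and none passed the test. The edgeR test called 2 of 15556 genes there, or 0.0129%. Of the 10 genes, 5 were negative, and their median log2 fold change was -0.023, against 0.012 over all genes. Before adjustment 2 of the 10 had p under 0.05, Kif19a higher and Enpp6 lower, where 5.48% of all genes did.

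Kif19a had 19.98, 19.7, 19.8, 21.7 and 15.7 CPM in the 5 knockout optic nerve libraries, against 11.7, 13.4, 14.4 and 16.6 CPM in the 4 wild-type ones. In 4 knockout nerves it was above every wild-type nerve, and KO_ON_719856 was within the wild-type range. Kif19a averaged 19.4 ± 2.21 CPM in knockout and 14.1 ± 2.06 CPM in wild type (SD, n = 5 and 4), a log2 fold change of 0.45 (standard error 0.13, 95% interval 0.17 to 0.73, adjusted p = 0.845). Enpp6 had 98.5, 91.4, 103, 114 and 91.0 CPM in the 5 knockout optic nerve libraries, against 109, 137, 102 and 149.98 CPM in the 4 wild-type ones. In 3 knockout nerves it was under every wild-type nerve, with a log2 fold change of -0.34 (standard error 0.13, 95% interval -0.62 to -0.056, adjusted p = 0.845). Neu4 had 38.4, 38.5, 41.9, 39.9 and 31.0 CPM in the 5 knockout optic nerve libraries, against 37.5, 49.2, 39.7 and 47.3 CPM in the 4 wild-type ones. Only KO_ON_719856 was outside the wild-type range, and the log2 fold change was -0.21 (95% interval -0.47 to 0.051, adjusted p = 0.845).

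Gpr17 spanned 166 to 251 CPM in knockout and 162 to 274 CPM in wild-type nerves, a log2 fold change of -0.056 (95% interval -0.41 to 0.29). Bmp4 was at 0.0096 (95% interval -0.33 to 0.35), with 57.9, 36.2, 36.7, 39.5 and 45.9 CPM in the 5 knockout optic nerve libraries, against 48.4, 43.4, 46.7 and 31.0 CPM in the 4 wild-type ones. The highest Bmp4 value of the series was thus in KO_ON_48038A7, and leaving out that library turned the log2 fold change to -0.11. Itpr2 had 76.3 ± 8.50 CPM in knockout and 65.5 ± 7.34 CPM in wild type (SD, n = 5 and 4), a log2 fold change of 0.20 (95% interval -0.013 to 0.41), and 3 knockout nerves were above every wild-type nerve. Bcas1 was at 0.13 (95% interval -0.21 to 0.48), Fyn at 0.053 (95% interval -0.15 to 0.25), Tns3 at -0.058 (95% interval -0.27 to 0.16) and Tcf7l2 at -0.087 (95% interval -0.56 to 0.38). All 4 had overlapping groups, and so had the rest of the 10, where 2.05% of all genes had groups without overlap.

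No gene of the lists around them was called in optic nerve either. Of 17 further newly formed oligodendrocyte genes, 4 were negative (median 0.057), with Cemip2, a cell-surface protein, at 0.32 (adjusted p = 0.845). Of 15 precursor markers 6 were negative (median 0.083) and of 20 mature markers 14 (median -0.17), with Klk6, a secreted protease, at -0.41 (adjusted p = 0.649) and Anln, a septin-binding protein of myelin, at -0.49 (adjusted p = 0.845). BMP genes were negative for 12 of 23 tested (median -0.034), Wnt genes for 6 of 16 (median 0.037), Src family and Fyn regulator genes for 6 of 16 (median 0.048) and relatives for 8 of 13 (median -0.11). The kinase Src itself was at 0.29 (adjusted p = 0.845). Neuron markers were positive for 14 of 18 (median 0.45), and microglia markers for 8 of 12 (median 0.040).

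The difference of the knockout effect between the tracts, optic nerve minus callosum, was positive for all 10 genes. Their median was 0.33 on the log2 scale, against 0.028 over all genes, of which 8885 of 16440 were positive. It uses the same callosum libraries, where all 10 were negative, so it is not a separate result. None of the 10 was called, and nor was any of the 16440 genes tested (0%), by edgeR, DESeq2 or limma-voom with quality weights. At an unadjusted p under 0.05 the edgeR test had 1123 genes, or 6.83%, and 2 of the 10. Kif19a differed most, by 0.76 (SE 0.27, 95% interval 0.19 to 1.33, adjusted p = 0.725), and Bcas1 next, by 0.62 (SE 0.25, 95% interval 0.10 to 1.15, adjusted p = 0.725). For Enpp6 the difference was 0.40 (95% interval -0.14 to 0.94), for Gpr17 0.33 (-0.22 to 0.89) and for Neu4 0.32 (-0.10 to 0.75). The mature markers were positive for 20 of 20 (median 0.43, 0 called) and the neuron markers for 7 of 18 (median -0.26, 0 called) in the same contrast. Without KO_ON_717651, 1 gene was called, and it was none of the 10.

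Some of the 10 genes differed between the tracts, but the share of them called was not above that of all genes. Bmp4 was several-fold higher in optic nerve than in callosum in both genotypes. Kif19a and Fyn were lower there at an adjusted p under 0.05. The log2 fold change was under 1 in size for Fyn in both genotypes and for Kif19a in knockout. Tcf7l2 and Tns3 did not reach an adjusted p under 0.05 by edgeR in either genotype. In wild type the edgeR test, which here also asked for a log2 fold change of at least 1 in size, called 4309 of 16440 genes, or 26.2%, and 2 of the 10. At any fold, 5 of the 10 had an adjusted p under 0.05, as did 51.3% of all genes. In knockout it called 4950 genes, or 30.1%, and 2 of the 10, and 8 of the 10 had an adjusted p under 0.05, as did 62.9% of all genes. Groups without overlap were found for 5 of the 10 in knockout and 4 in wild type, where 43.5% and 42.5% of all genes had them.

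Bmp4 was higher in optic nerve than in callosum. It averaged 43.2 ± 9.08 CPM in KO_ON and 10.4 ± 1.84 CPM in KO_CCg (SD, n = 5 and 6), a log2 fold change of 2.05 (standard error 0.17, 95% interval 1.71 to 2.40, adjusted p = 1.9e-09). In wild type it averaged 42.4 ± 7.88 CPM in optic nerve and 12.6 ± 2.93 CPM in callosum (SD, n = 4 and 5), a log2 fold change of 1.75 (standard error 0.18, 95% interval 1.37 to 2.13, adjusted p = 1.1e-07). No optic nerve library overlapped a callosum library. In wild type Kif19a was lower in optic nerve than in callosum, at 14.1 ± 2.06 CPM against 41.1 ± 9.67 CPM (SD, n = 4 and 5). The log2 fold change was -1.55 (standard error 0.21, 95% interval -1.98 to -1.11, adjusted p = 3.4e-06). In knockout its log2 fold change was -0.79 (95% interval -1.17 to -0.41, adjusted p = 8.8e-04), below the size asked for, and the libraries of the tracts did not overlap in either genotype.

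Fyn was lower in optic nerve than in every callosum library, in both genotypes. Its log2 fold change was -0.67 in knockout (adjusted p = 2.7e-06) and -0.92 in wild type (adjusted p = 2.8e-07), under the size of 1 in both. Gpr17 was at -0.46 in knockout (adjusted p = 0.032), with overlapping libraries, and at -0.79 in wild type (adjusted p = 0.00246), with none overlapping. In knockout the adjusted p of Gpr17 was 0.059 to 0.091 without KO_CCg_29, KO_CCg_717651, KO_ON_693452 or KO_ON_719856 and 0.102 with limma-voom and quality weights. Within knockout, Enpp6 was higher in optic nerve than in callosum, at 99.6 ± 9.69 CPM against 48.8 ± 12.2 CPM (SD, n = 5 and 6). The log2 fold change was 1.03 (95% interval 0.67 to 1.40, adjusted p = 3.3e-05). In wild type it was at 0.63 (SE 0.19, adjusted p = 0.00936). That call of Enpp6 in knockout sat at the size asked for, and leaving out KO_CCg_27, KO_CCg_693451, KO_CCg_719856 or KO_ON_717651 brought the log2 fold change to between 0.94 and 0.99 and left 1 of the 10 called.

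Bcas1 was at 0.96 in knockout (SE 0.17, adjusted p = 5.2e-05), just under the size of 1, with every optic nerve library above every callosum library. It passed that size without KO_CCg_29, KO_CCg_717651 or KO_ON_719856, with a log2 fold change of 1.01 to 1.07, which made 3 of the 10 called. In wild type Bcas1 was at 0.33 (95% interval -0.053 to 0.72, adjusted p = 0.143). Itpr2 was at 0.41 in knockout (adjusted p = 0.00405) and 0.076 in wild type (adjusted p = 0.649). For Neu4 the values were 0.32 in knockout (adjusted p = 0.047) and -0.0023 in wild type (adjusted p = 0.992). That p of Neu4 in knockout was 0.075 to 0.133 without KO_CCg_27, KO_CCg_693451, KO_CCg_693452, KO_CCg_719856, KO_ON_48038A7, KO_ON_48118A4, KO_ON_693452 or KO_ON_717651. Whether the tract difference itself depended on genotype is the contrast given above, where no gene was called. Tns3 was at 0.18 in knockout (95% interval -0.11 to 0.47) and -0.19 in wild type (95% interval -0.51 to 0.14), and Tcf7l2 at 0.10 (95% interval -0.43 to 0.64) and 0.0056 (95% interval -0.58 to 0.60) for the same pair. With limma-voom and quality weights Tns3 in knockout had 0.35 (adjusted p = 0.00658), under the size of 1.

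**Figure D5:**
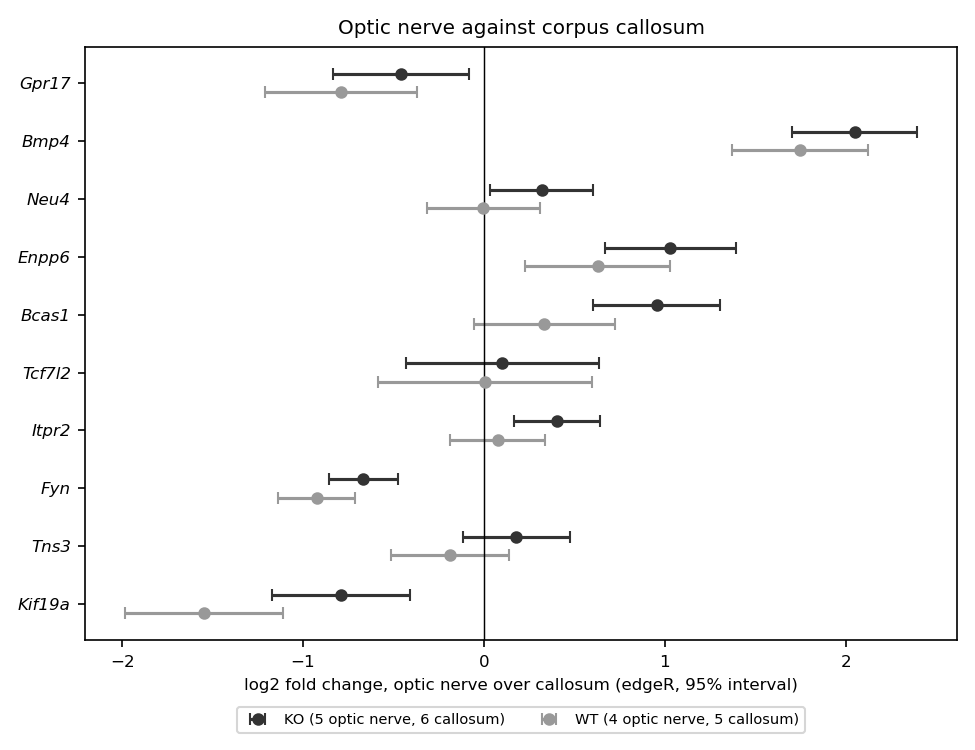
Log2 fold change of each gene, optic nerve over corpus callosum, in knockout (5 and 6 libraries) and in wild type (4 and 5 libraries), from edgeR, with bars for the 95% interval. Bmp4 stands highest, at 2.05 in knockout and 1.75 in wild type, and Kif19a lowest, at -0.79 and -1.55.

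The lists around the 10 genes are to be read against the 30.1% of all genes called in knockout and 26.2% in wild type. Of 24 BMP pathway genes, 7 were called higher and 4 lower in knockout optic nerve (45.8% in all), and 6 higher and 2 lower in wild type (33.3%). The ligand Bmp7 had 5.20 (adjusted p = 6.8e-13) in knockout and 4.96 (adjusted p = 9.0e-12) in wild type, and the ligand Bmp6 3.36 (adjusted p = 1.5e-10) in knockout. The inhibitory Smad6 had 2.33 (adjusted p = 1.5e-10) in knockout and 2.32 (adjusted p = 1.3e-09) in wild type, and Id1, a transcriptional target of BMP signals, 1.97 (adjusted p = 1.0e-08) in wild type. Of 16 Wnt genes, 2 were called higher and 1 lower in knockout (18.8%), below the share of all genes, and 0 in wild type by edgeR, where 10 (62.5%) had an unadjusted p under 0.05, as had 56.2% of all genes. Of 16 Src family and Fyn regulator genes, 3 were called higher and 2 lower in knockout (31.2%), and 3 higher and 1 lower in wild type (25.0%), shares close to those of all genes, among them the kinase Lyn, at 1.81 (adjusted p = 2.0e-11) in knockout. Of 15 relatives, 7 were called higher and 3 lower in knockout (66.7%), and 7 higher and 2 lower in wild type (60.0%), with Enpp1 at 1.98 (adjusted p = 2.3e-11) and Tns1 at 1.65 (adjusted p = 2.3e-11) in knockout.

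No further gene of the newly formed stage was called higher in optic nerve, unlike Bmp4 in both genotypes and Enpp6 in knockout. Of 17, 0 were called higher and 3 lower in knockout optic nerve (17.6% in all), with a median log2 fold change of -0.42. In wild type 0 of them were called higher and 4 lower (23.5%), with a median of -0.63. The calcium-sensing receptor gene Casr was at -2.08 (adjusted p = 2.3e-06) in knockout and -2.87 (adjusted p = 4.5e-07) in wild type, and Cemip2 at -1.01 (adjusted p = 3.7e-08) and -1.27 (adjusted p = 1.3e-08). The medians of the 10 genes were 0.25 in knockout and 0.0017 in wild type, and that in knockout was 0.38 without KO_CCg_29 and 0.39 with limma-voom and quality weights. Of all 16440 genes, 30.1% were called in knockout (2445 higher) and 26.2% in wild type (2135 higher). Mature oligodendrocyte markers were called higher for 7 of 20 in knockout (35%) and 6 of 20 in wild type (30%), and lower for 0 in both. Precursor markers were called higher for 4 and lower for 2 of 15 in knockout (40% in all). In wild type 1 was called higher and 2 lower (20%). All 18 neuron markers were called lower in optic nerve in both genotypes, microglia markers higher for 11 of 12 in knockout and 9 of 12 in wild type, and mural and fibroblast markers higher for 10 of 12 in both. Their part in the tract differences of the 10 genes was not tested.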

How the data were processed

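The authors deposited a table of estimated counts (expected counts) per gene for 20 libraries, made from frozen tissue with a stranded mRNA kit, per the labels' protocols. Per the submitters' processing notes, the genome build was mm10. Which quantifier version, transcript set and read length were used is not given in the sources used. Estimated counts were rounded to whole numbers, since the tests need counts. Symbols, positions and exon lengths come from a GENCODE annotation of the same build, matched by gene identifier with the version removed. Promoter windows come from RefSeq (GRCm38.p6). Protein sequences were not used here.

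Each tract was fitted apart with the quasi-likelihood test of edgeR 4.0.16 in R 4.3.3, after filterByExpr (minimum count 10, minimum total 15) and TMM scaling. All 10 genes passed the filter in every comparison. A fit of all 4 groups gave the tract comparisons and the difference of the knockout effect. A gene was called at a Benjamini-Hochberg adjusted p under 0.05 over all genes tested, and between tracts only if the log2 fold change was also at least 1 in size. Intervals are 95% intervals from the same fit. The biological coefficient of variation was 23.7% in callosum and 20.2% in optic nerve. With 6 and 5 or 5 and 4 libraries, changes well under 1 on the log2 scale can be missed.

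The genes and the lists around them were chosen with earlier results of these data known. The text names the 10 genes, Zdhhc9, and up to 3 genes of each described list with the smallest p in the comparison described. Alternatives were DESeq2 1.42.0, limma-voom (limma 3.58.1) with sample quality weights, other scaling and filters, marker and number-format covariates, subsets, a joint fit, a replicate block and each library left out. The fits were also run on simulated counts without differences of cell mix. The outcome is not given here, and no result above rests on it. Some sample numbers occur in both tracts, and the labels do not say what a shared number marks.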

Additional observations from a re-analysis of the deposited data

Results flagged for a closer look

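The highest or lowest library of a group was compared with the rest by Dixon's gap over 40 combinations of gene and group, where chance alone flags about 1 in 20. A gap was large in 2 of them. Tcf7l2, the transcription factor gene, was 26.4 CPM in KO_CCg_29, and the next highest knockout callosum library had 15.8 CPM. Without KO_CCg_29 the log2 fold change of Tcf7l2 in callosum, knockout over wild type, was -0.40, against -0.18 with it. Bcas1 was 1649.8 CPM in WT_ON_717652, and the next lowest wild-type optic nerve had 2131 CPM. Without WT_ON_717652 the log2 fold change of Bcas1 in optic nerve was 0.040, against 0.13 with it. The cause of either value was not tested.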

How the results depend on the processing

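In corpus callosum, edgeR called 6 genes and none of the 10. DESeq2 called 174 and 1 of the 10, limma-voom with sample quality weights 2786 and 8 of the 10, a fit of all 4 groups 41, number format as a covariate 10, the mature marker covariate 3, longer numbers alone 2 and 2-digit numbers alone 0. Leaving out each library gave 2 to 41. The subsets also hold fewer libraries. The cause of these differences was not tested. In optic nerve the 2 genes called became 35 with DESeq2 and 1 with the neuron covariate, the mature covariate or 6-digit numbers alone, and none of the 10 was called in any fit. Leaving out each library gave 0 to 1 called genes for the difference of the knockout effect. Between the tracts in knockout it gave 1 to 3 of the 10 genes called. The main fit called 2 of the 10 there, and 30.1% of all genes.

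Signs turned only for genes with values near 0 or under a covariate. In callosum the neuron covariate gave Tcf7l2 0.32 and Itpr2 0.084, and the mature covariate gave Gpr17 0.068, Tcf7l2 0.49, Itpr2 0.13, Bcas1 0.023, Fyn 0.0057, Tns3 0.0077 and Kif19a 0.16, with a median of 0.015 over the 10. In optic nerve the mature covariate gave Gpr17 0.19, Bmp4 -0.13 and Tns3 0.039, limma-voom with quality weights gave Bmp4 -0.071, and 6-digit numbers alone gave Bmp4 -0.068 and Tcf7l2 0.15. Leaving out each library there gave Bmp4 -0.11 to 0.081, Gpr17 -0.19 to 0.057, Tcf7l2 -0.24 to 0.016 and Tns3 -0.11 to 0.024. Over the libraries left out in turn, Tcf7l2 ran for the difference of the knockout effect from -0.099 to 0.32. Between the tracts, again over libraries left out, in wild type Tcf7l2 ran from -0.14 to 0.20 and Neu4 from -0.061 to 0.097, and in knockout Tcf7l2 ran from -0.0024 to 0.32. Neu4 in wild type was 0.0092 with limma-voom and quality weights, 0.030 with no filter, 0.037 with a filter of 1 CPM, 0.027 in the 2 groups alone and 0.015 with a replicate block.

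Some sample numbers were shared by both tracts. The deviations of same-numbered libraries from their group means correlated at 0.026, -0.15 and 0.14 in knockout and -0.061 in wild type. WT_CCg_7198587 and WT_ON_719857, whose numbers are nearly alike and could stand for the same number, correlated at 0.13. Such deviations can also hold differences of dissection in each tract, so they cannot tell whether a shared number is the same mouse. With a replicate block (limma-voom over all groups) 4291 genes in wild type, 4918 in knockout and 0 for the difference were called of 16440 tested. Of the 10, 2, 2 and 0 were called. The consensus correlation of same-numbered libraries in that fit was -0.11, so the block had no positive correlation to account for. In the 3 shared knockout numbers alone, a replicate block called 4410 genes in edgeR, against 4446 without it, and 3 of the 10. The 30.1% of all genes called in knockout is from the main fit, which used more libraries. It is not the share for this subset, so the 3 of the 10 cannot be set against it. The median over the 10 was 0.45 with that block. Tcf7l2, at 0.53 (adjusted p = 0.031), was under the size of 1 and not called.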
